A study of Mus musculus with 14 samples.

Results

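Cationic liposomes carry DNA into cells, and Lipofectamine 2000 is a commercial preparation of them. In this series B16-F10 cells, a melanoma line from the C57BL/6J mouse strain, were measured on 14 Affymetrix mouse expression arrays, and 8 of these enter the comparison described here: 3 of cells given Lipofectamine and 5 of untreated control cells. The arrays were chosen by their treatment label alone, and each is labelled as a biological replicate. The Lipofectamine cells had the liposomes for 3 h in Opti-MEM, without plasmid DNA, and then 30 min in RPMI with 10% FBS. The control cells were untreated, so liposomes, change of medium and fresh serum cannot be told apart. The comparison is of the liposome procedure as a whole with no treatment. Chaperone, early response and DNA replication genes were set aside, and the genes beyond them are described. Of the 196 measured genes set aside 21 rose and 19 fell, where 1.69% of all genes rose and 3.33% fell. Of 74 chaperones 6 rose and 2 fell. Of 68 early response genes 15 rose and 2 fell, and of 54 for DNA replication 0 rose and 15 fell.

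Cationic lipids bind the negatively charged cell surface and enter mostly by endocytosis, before part of their load escapes from endosomes. Cells answer reactive compounds through the factor NRF2, which switches on glutathione and detoxification genes, and excess zinc or other metals through metallothioneins. NF-kB, held in the cytoplasm by its inhibitor, switches on chemokines and the gene of that inhibitor.

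Values are log2 signals after RMA, which corrects background, normalizes arrays and summarizes the short probes of each probeset, so a difference of 1 is 2-fold. A probeset passed at an adjusted p under 0.05 (limma, Benjamini-Hochberg over 22626 probesets), and only such probesets are said to have risen or fallen. RNA was taken from whole cultures, so fewer cells with an RNA and less of it per cell cannot be told apart. Of all probesets, 1104 passed (4.88%), with 402 higher (1.78%) and 702 lower (3.1%), in 880 genes. All 3 Lipofectamine arrays lay outside the range of the 5 control arrays at 1055 of these, and at 2355 of all probesets (10.4%). Array medians lay between 7.03 and 7.12, and Lipofectamine and control arrays correlated at 0.977 to 0.992 across probesets. The 8 measured melanocyte markers, with control means of 9.38 to 13.21, all had negative differences, from −0.03 (Pmel) to −1.41 (Mitf), with a median of −0.19 against all control arrays, −0.02 against control arrays 1 and 3 and −0.26 against 2, 4 and 5. None of 46 measured markers of melanocytes, fibroblasts, macrophages, endothelium, keratinocytes and lymphocytes passed, and the markers of the other cell types had control means of at most 7.98.

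The untreated cells were not uniform: 440 probesets stood 2-fold or more apart between the mean of control arrays 1 and 3 and that of 2, 4 and 5. These sets were seen in the data and are not groups of the study, and their origin was not tested. The change of a named gene at its leading probeset is therefore given against all 5 control arrays, against control arrays 1 and 3, and against control arrays 2, 4 and 5, and changes at further probesets are against all 5. Where a pair of changes stands in brackets, the first is against control arrays 1 and 3 and the second against 2, 4 and 5, and control values are in the order of arrays 1 to 5 unless a set is named. All 1104 probesets that passed kept their direction against either set. The test itself favours this, because the main change averages over both sets and a gap between them adds to the spread. The median change of the risen probesets was 0.64 against all control arrays, 0.52 against 1 and 3, and 0.72 against 2, 4 and 5. For the fallen ones it was −0.58, −0.45 and −0.64. With control arrays 2, 4 and 5 left out, 200 of the 402 rises and 274 of the 702 falls still passed. At 19 rises and 12 falls the change was at least 2-fold against both sets.

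**Figure D1:**
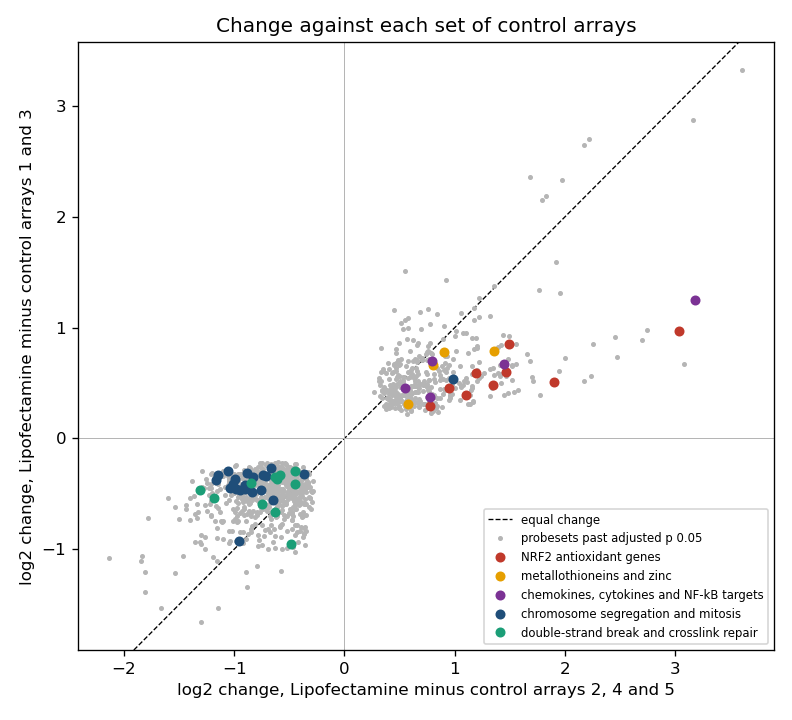
Each grey point is 1 of the 1104 probesets past an adjusted p of 0.05, with its log2 change (Lipofectamine minus control) against control arrays 2, 4 and 5 on the horizontal axis and against control arrays 1 and 3 on the vertical axis. Coloured points are members of 5 gene lists that passed. Points on the dashed line changed equally against both sets: Mt1 (0.90 across, 0.78 up) lies near it, and Gclm (3.04 across, 0.97 up) and Cxcl1 (3.18 across, 1.25 up) lie far to its right.

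Zinc-binding and zinc transport genes were among those that rose. Mt1 and Mt2 encode metallothioneins, small proteins that bind zinc and copper. Mt1 (1422557_s_at) gave 13.38, 13.27 and 13.22 with Lipofectamine, against 12.44, 12.33, 12.58, 12.36 and 12.46 in control arrays 1 to 5. Mt2 (1428942_at) gave 13.24, 13.23 and 13.19, against 12.23, 11.80, 12.62, 12.14 and 11.67 in the control arrays. In both genes every Lipofectamine array was above every control array. Mt1 rose by 0.85 (SE 0.09, adjusted p = 0.000293, limma), and by 0.78 and 0.90 against control arrays 1 and 3 and against control arrays 2, 4 and 5. Mt2 rose by 1.13 (SE 0.17, adjusted p = 0.00278), with changes of 0.79 and 1.35 against those sets. The suffix _s_at of the Mt1 probeset marks probes that several transcripts may share, and a dimmer Mt1 probeset without it, 1451612_at, did not pass, with a difference of 0.74 (adjusted p = 0.0652).

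Slc30a1 encodes ZnT1, which exports zinc from the cell. Its signal was 7.89, 7.94 and 7.67 with Lipofectamine and 7.23, 7.21, 7.11, 7.0 and 6.89 in the control arrays, again without overlap. It rose by 0.75 (SE 0.11, adjusted p = 0.00253), with 0.66 against control arrays 1 and 3 and 0.80 against 2, 4 and 5. Slc39a4, a zinc importer, rose by 0.47 (adjusted p = 0.0214; 0.31 and 0.58 against the sets), a call lost without Lipofectamine array 1 (0.104) or 3 (0.0789) or control array 4 (0.0566). Of 19 measured genes for metallothioneins and zinc, read from their brightest probesets, 4 rose and 0 fell, against 1.69% of all 12393 genes that rose and 3.33% that fell. The list's median change was 0.09, beside −0.02 over all genes.

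Glutathione and detoxification genes were among the rises, by amounts that depended on the control set. Of 27 NRF2 antioxidant genes measured, 9 rose (33.3%, against 1.69% of all genes), 0 fell and 18 did not pass. Their median change was 0.82 against all control arrays, 0.14 against control arrays 1 and 3, and 1.17 against control arrays 2, 4 and 5. Gclm, the modifier subunit of the enzyme that makes the glutathione precursor, gave 12.08, 12.07 and 12.03 with Lipofectamine, against 11.09, 8.81, 11.10, 9.05 and 9.23 in control arrays 1 to 5. Control arrays 1 and 3, at about 11.1, were nearer to the Lipofectamine arrays than control arrays 2, 4 and 5, at 8.81 to 9.23. Gclm rose by 2.21 (SE 0.46, adjusted p = 0.0166, limma), with 0.97 against control arrays 1 and 3 and 3.04 against 2, 4 and 5. This call was lost without Lipofectamine array 1, 2 or 3 (0.0809, 0.0578 and 0.0691).

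The antioxidant response element, whose core is TGACNNNGC, is the site at which NRF2 acts. It was searched on both strands of promoter windows (250 bases before to 50 after the start of the transcript, RefSeq, GRCm38.p6). Gclm is shown because it had the largest rise among the listed genes with a match before the start.
Gclm (chr3:122245408-122245446, + strand): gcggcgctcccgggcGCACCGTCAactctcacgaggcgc
The stretch reads 5′ to 3′ on the gene's strand and ends before the start, and the capitals mark the match, which lies on the opposite strand. Of the 9 NRF2 genes that rose, 6 have a window and 3 of these hold the core (Gclm, Txnrd1 and Me1), while 1614 of the 9887 measured genes with a window (16.3%) and 13.8% of all 12566 windows do. Of the whole NRF2 list, 6 of 22 genes with a window hold it. The core shares letters with the AP-1 motif TGANTCA, and a stretch can match both.

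Gsr, glutathione reductase, gave 10.33, 10.40 and 10.10 with Lipofectamine, against 9.62, 8.74, 9.22, 8.63 and 8.97 in the control arrays. The highest control array lay 0.48 below the lowest Lipofectamine array. Gsr rose by 1.24 (SE 0.18, adjusted p = 0.00244), with 0.86 and 1.49 against the sets in the same order, and its other probeset rose by 1.19. Gclc, the catalytic partner of Gclm, rose by 0.96 (0.59 and 1.2) and by 0.97 at its other probeset. Me1, which supplies NADPH, rose by 0.75 (0.46 and 0.95), and its call was lost without Lipofectamine array 1 (0.0654). Gstm1, a glutathione transferase, rose by 1.12 (0.60 and 1.46), but not without Lipofectamine array 1 (0.0714) or 2 (0.056). Me1 rose at 1 of its 2 probesets, and Gstm1 at 2 of its 4. Nqo1, a quinone reductase, gave 8.21, 8.82 and 8.05 with Lipofectamine, against 7.66 and 8.05 in control arrays 1 and 3 and 6.12, 6.54 and 6.73 in control arrays 2, 4 and 5. Control array 3 thus nearly reached the lowest Lipofectamine array. Nqo1 rose by 1.34 (0.51 and 1.90), a call lost without any of 9 of the 11 arrays in the fit, heat shock arrays included and control arrays 1 and 3 not (0.0674 to 0.152). With control arrays 2, 4 and 5 left out, 8 of the 27 NRF2 genes were higher and 0 lower, where 1.32% of all genes were higher and 3.45% lower.

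Glrx and Adh7, outside that list, also rose. Glrx, glutaredoxin, which takes glutathione off oxidised proteins, gave 7.75, 7.76 and 7.36 with Lipofectamine and 6.73, 6.57, 6.57, 6.75 and 6.50 in the control arrays. These control values span only 0.25, and both sets gave nearly the same change (0.97 and 1.01). The change was 1.0 at this probeset (SE 0.11, adjusted p = 0.000445) and 0.85 at the other. Adh7, an alcohol dehydrogenase that acts on retinol, gave 7.32, 7.47 and 7.53 with Lipofectamine, against 6.39, 4.70, 6.54, 4.66 and 4.72 in the control arrays, which puts control arrays 1 and 3 between the Lipofectamine arrays and the others. It rose by 2.04 (SE 0.40, adjusted p = 0.0121), with 0.98 and 2.75, and the call was lost without Lipofectamine array 1 (0.0573) or 3 (0.0594).

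Chemokine and NF-kB genes were also among the rises. Of 42 measured, 5 rose (11.9%, against 1.69% of all genes), 0 fell and 37 did not pass. The median was 0.22, and 0.06 and 0.29 against control arrays 1 and 3 and against control arrays 2, 4 and 5. In the fit without control arrays 2, 4 and 5, 3 of the 42 were higher and 2 lower. Of all genes 1.32% were higher and 3.45% lower in that fit. Cxcl1 and Cxcl2 are chemokines that draw neutrophils, Csf1 is the growth factor of macrophages, and Nfkbia encodes the inhibitor that holds NF-kB in the cytoplasm. The stretches below are shown because these 4 genes rose and their promoter windows, taken as for Gclm, hold the letters GGNNTTTCC, a form of the NF-kB motif, on either strand. They read 5′ to 3′ on the gene's strand, end before the start of the transcript, and have the match in capitals.
Cxcl1 (chr5:90891141-90891198, + strand): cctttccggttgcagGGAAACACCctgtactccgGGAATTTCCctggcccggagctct
Cxcl2 (chr5:90903788-90903845, + strand): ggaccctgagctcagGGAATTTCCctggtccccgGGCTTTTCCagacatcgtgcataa
Csf1 (chr3:107760600-107760638, − strand): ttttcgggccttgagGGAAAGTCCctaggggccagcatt
Nfkbia (chr12:55492653-55492691, − strand): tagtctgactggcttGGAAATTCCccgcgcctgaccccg
All 5 listed genes that rose have a window, and the fifth, Lif, holds no match. A second match of Nfkbia, which begins 178 bases before the start, lies outside the stretch shown. The letters occur in 14 of the 32 listed genes that have a window, in 705 of the 9887 measured genes that have one (7.13%), and in 5.98% of all 12566 windows. A match is a description of these windows, and binding was not measured.

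Cxcl1 gave 9.17, 9.02 and 8.48 with Lipofectamine, against 7.79, 6.04, 7.48, 5.62 and 5.47 in control arrays 1 to 5. The control arrays spread over 2.32, with 1 and 3 the highest. All lay below the Lipofectamine arrays, as the choice of the largest rises required. Cxcl1 rose by 2.41 (SE 0.45, adjusted p = 0.00966, limma), with 1.25 against control arrays 1 and 3 and 3.18 against 2, 4 and 5. Cxcl2 was dimmer, at 5.72, 5.50 and 5.64 with Lipofectamine and 5.0, 4.75, 4.85, 4.91 and 4.82 in the control arrays, and rose by 0.75 (0.69 and 0.80). Csf1 gave 9.18, 9.31 and 8.89 with Lipofectamine, against 8.38, 7.84, 8.53, 7.66 and 7.54 in the control arrays and rose by 1.14 (0.68 and 1.45), with 1 of its other 3 probesets also higher (0.82). Nfkbia gave 10.84, 10.93 and 10.82 with Lipofectamine, against 10.39, 10.46, 10.42, 10.20 and 10.29 in the control arrays. Its change of 0.51 was small but similar against either set (0.46 and 0.55), and 3 of its 4 probesets rose. Each of these 4 calls was lost without Lipofectamine array 1, at 0.0647 for Cxcl1, 0.0681 for Cxcl2, 0.0538 for Csf1 and 0.0599 for Nfkbia. The fifth rise was Lif, a cytokine chosen after its values were seen, at 0.62 (0.38 and 0.78).

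Ly96 and Hivep1, which also belong to innate signalling, rose and held with each array left out. Ly96 encodes MD-2, the partner of Toll-like receptor 4 in binding bacterial lipid, and gave 8.53, 8.54 and 8.36 with Lipofectamine, against 7.42, 7.26, 7.63, 7.54 and 7.39 in the control arrays. It rose by 1.03 (SE 0.11, adjusted p = 0.000475), with 0.95 against control arrays 1 and 3 and 1.08 against 2, 4 and 5. Hivep1, a zinc finger protein that binds NF-kB-like sites, was near the low end of the scale, with 5.44, 5.78 and 5.26 with Lipofectamine, against 4.50, 4.07, 4.61, 4.16 and 3.94 in the control arrays, and rose by 1.24 (0.93 and 1.44). Of 39 interferon and antigen presentation genes 2 rose (5.13%, against 1.69% of all genes) and 0 fell. The rises were Irgm1 (0.50, with 0.53 and 0.47) and Rsad2 (0.80, with 0.31 and 1.12). Both calls were lost when arrays were left out, Irgm1 without Lipofectamine array 1 (0.0552) or 3 (0.0862), and Rsad2 without any of 9 arrays (0.0649 to 0.172), all but control arrays 1 and 3.

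Slc19a2, Klhl24 and Fgd4 rose by similar amounts against either set of control arrays. Slc19a2, which carries thiamine into cells, gave 8.08, 8.03 and 7.91 with Lipofectamine, against 7.03, 6.74, 6.63, 6.77 and 6.98 in the control arrays. The change was 1.18 (SE 0.11, adjusted p = 0.000144, limma), 1.18 against control arrays 1 and 3 and 1.18 against 2, 4 and 5, and its brighter probeset rose by 0.98. Klhl24, an adaptor of a ubiquitin ligase, gave 6.85, 7.11 and 6.78 with Lipofectamine, against 6.02, 5.49, 5.59, 5.81 and 5.47 in the control arrays and rose by 1.23 (1.10 and 1.32). Fgd4, an activator of the GTPase Cdc42, gave 7.50, 7.87 and 7.27 with Lipofectamine, against 6.25, 6.42, 6.56, 6.47 and 6.57 in the control arrays and rose by 1.09 (1.14 and 1.06), while 2 of its 4 probesets did not pass (0.03 and −0.12). Zbtb1, a zinc finger regulator of transcription, gave 8.35, 8.77 and 8.07 with Lipofectamine, against 6.97, 7.39, 6.95, 7.61 and 7.42 in the control arrays. It rose by 1.13, with a larger change against control arrays 1 and 3 (1.43) than against 2, 4 and 5 (0.92).

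Ddit4l, an inhibitor of the growth kinase mTOR, gave 8.20, 8.35 and 7.87 with Lipofectamine, against 7.02, 6.45, 7.41, 6.73 and 6.76 in the control arrays. It rose by 1.27 (0.92 and 1.49) and by 1.05 at its other probeset. Vasn, a membrane protein that binds TGF-beta, had the largest rise by the lesser of the changes against the sets, with 5.31, 5.79 and 5.05 with Lipofectamine, against 3.93, 3.39, 4.21, 3.47 and 3.42 in the control arrays and a rise of 1.70 (SE 0.19, adjusted p = 0.000546; 1.31 and 1.96). These control signals are close to the lowest on the arrays, the probeset is of a type that may cross-hybridize (suffix _x_at), and the brighter Vasn probeset rose by 0.73. Ywhag, Hdlbp and Lamp2 rose at 1 probeset each, by 1.17 (1.10 and 1.22), 1.13 (1.07 and 1.17) and 1.08 (0.91 and 1.2), while none of their other 2, 4 and 3 probesets passed. The call of Lamp2 was lost without Lipofectamine array 1 (0.0649), that of Hdlbp without Lipofectamine array 1, 2 or 3 or control array 4 (0.0516 to 0.124), and that of Ywhag without any of 9 arrays (0.0546 to 0.172), all but control arrays 1 and 3.

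**Figure D2:**
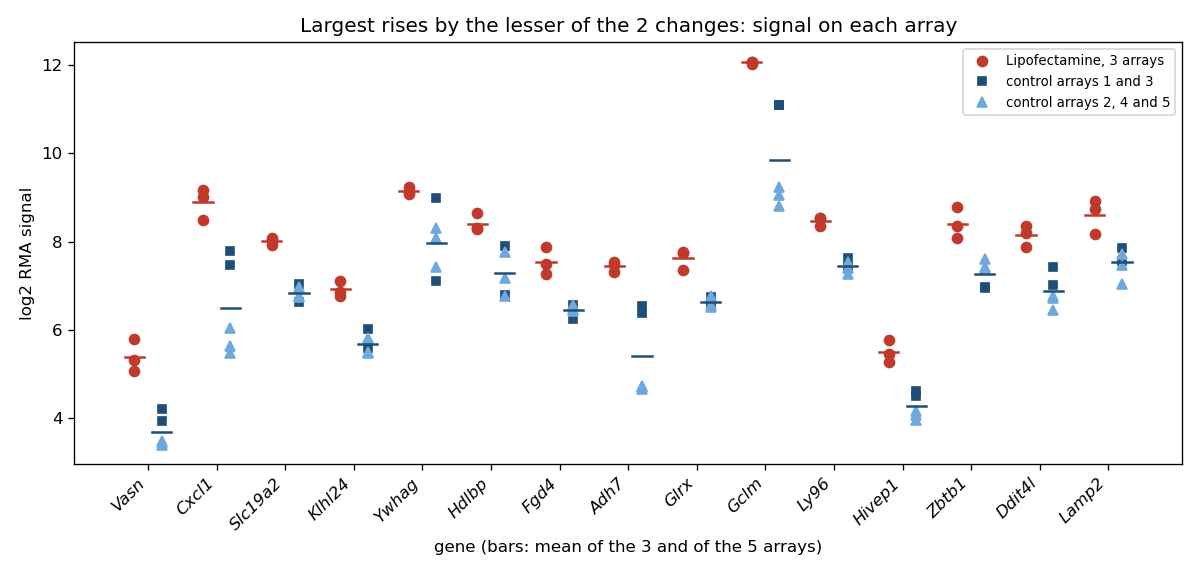
Log2 RMA signal (vertical axis) of 15 genes with the largest rises, ranked from left to right by the lesser of the changes against the 2 control sets. For each gene the 3 Lipofectamine arrays (red circles) stand left of the control arrays (dark squares 1 and 3, light triangles 2, 4 and 5), with bars at the group means. No control array reaches the Lipofectamine arrays because the genes were chosen by that condition. The sets part widely in Cxcl1, Adh7 and Gclm but not in Slc19a2, Glrx or Ly96.

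Enzymes of lipid metabolism moved in small numbers. Chka, choline kinase, which starts phosphatidylcholine synthesis, gave 8.45, 8.66 and 8.30 with Lipofectamine, against 7.83, 7.47, 7.96, 7.64 and 7.69 in the control arrays. It rose by 0.75 (SE 0.13, adjusted p = 0.00502, limma), with 0.57 and 0.87 against the sets, and held with each array left out. Etnk1, ethanolamine kinase, rose by 0.76 (1.07 and 0.55) and at both other probesets (0.93 and 0.64), though its first call was lost without Lipofectamine array 1 (0.0895) or 2 (0.0615). Of 38 phospholipid and sphingolipid enzymes 4 rose (10.5%) and 1 fell (2.63%), where 1.69% of all genes rose and 3.33% fell. Their median was −0.02 and changed sign under 11 alternatives. Of 36 sterol and fatty acid genes 5 rose (13.9%) and 1 fell (2.78%), with a median of 0.17, and of 0.12 and 0.18 against the sets. Among the rises were Lpin1, a phosphatidate phosphatase, at 0.63 (0.44 and 0.76), and Sqle, of cholesterol synthesis, at 0.43 (0.38 and 0.47). The call of Lpin1 was lost without Lipofectamine array 1 (0.0695), and that of Sqle without Lipofectamine array 1 or 2 or control array 4 or 5 (0.052 to 0.132).

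Genes of endocytosis passed in both directions. Of 61 endocytosis and endosomal sorting genes 5 rose (8.2%) and 3 fell (4.92%), with a median of −0.02, where 1.69% of all genes rose and 3.33% fell. In the fit without control arrays 2, 4 and 5, 1 of the 61 was higher and 1 lower. Of all genes 1.32% were higher and 3.45% lower in that fit. Ap1g1, a subunit of the AP-1 clathrin adaptor, gave 9.05, 9.31 and 9.11 with Lipofectamine, against 8.85, 8.44, 8.51, 8.43 and 8.45 in the control arrays, and rose by 0.62 (0.48 and 0.72). Itsn1, an endocytic scaffold, fell by 0.42 (−0.38 and −0.45). Ap1g1 rose at 2 of its 4 probesets, and Itsn1 fell at 1 of its 5. With control arrays 2, 4 and 5 left out neither call held (0.0538 for Ap1g1 and 0.087 for Itsn1). Of 50 genes for lysosome, vacuolar ATPase and autophagy 1 rose (2%, near the share of all genes) and 0 fell. The rise was Ulk1, a kinase that starts autophagy (0.55, with 0.48 and 0.60 against the sets), a call lost without Lipofectamine array 1 (0.0787) or 2 (0.0583). Proteasome subunits rose at 6 of 37 genes (16.2%) by at most 0.52 (median 0.25, and 0.17 and 0.33 against the sets), and 1 gene (2.7%), an assembly factor, fell. In the fit without control arrays 2, 4 and 5, 1 of the 37 was higher and 0 lower. Among the rises, the calls of Psma4, Psmd1, Psma7 and Psmc6 were lost without Lipofectamine array 1 (0.058, 0.0627, 0.104 and 0.169).

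Genes under p53 rose at 5 of 31 (16.1%, against 1.69% of all genes). The changes of Trp53inp1, Cdkn1a, Ccng1 and Mdm2 were smaller against control arrays 1 and 3 than against 2, 4 and 5, while Ccng2, chosen after its values were seen, gave 0.52 and 0.54. Trp53inp1, a p53-induced nuclear protein, gave 9.13, 9.32 and 9.03 with Lipofectamine, against 8.08 and 8.41 in control arrays 1 and 3 and 6.39, 6.74 and 6.99 in control arrays 2, 4 and 5. It rose by 1.84 (0.92 and 2.45) and by 0.83 at its other probeset, the first call being lost without Lipofectamine array 1 (0.0627) or 2 (0.0526). Cdkn1a, the inhibitor p21 that stops the cell cycle, gave 11.53, 11.62 and 11.28 with Lipofectamine, against 10.98 and 11.18 in control arrays 1 and 3 and 9.79, 9.70 and 9.61 in the others, and its change was 1.23, with 0.40 and 1.78 against the sets. Its call was lost without any of 9 arrays, all but control arrays 1 and 3 (0.0665 to 0.16). The other probeset of Cdkn1a did not pass. With control arrays 2, 4 and 5 left out, 1 of the 31 was higher and 5 lower, where 1.32% of all genes were higher and 3.45% lower.

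For the amino acid and endoplasmic reticulum stress genes even the direction of the median depended on the control set. The ATF4 list had a median of 0.24 over 39 genes against all control arrays, of −0.36 against control arrays 1 and 3, and of 0.68 against control arrays 2, 4 and 5. Against all control arrays 1 of these rose, Slc38a2, a glutamine transporter, at 10.88, 10.98 and 10.79 with Lipofectamine, against 10.33 and 10.60 in control arrays 1 and 3 and 9.24, 9.46 and 9.35 in the others. It rose by 1.09 (0.42 and 1.53), a call lost without any of 9 arrays, all but control arrays 1 and 3 (0.0502 to 0.135). With control arrays 2, 4 and 5 left out, 1 was higher and 14 lower, where 1.32% of all genes were higher and 3.45% lower. With control arrays 1 and 3 left out 30 were higher and 0 lower, where 8.09% of all genes were higher and 10.9% lower. The endoplasmic reticulum list behaved alike over 35 genes (median 0.40, then −0.06 and 0.78). Its 1 rise was Eif2ak3, the sensor kinase PERK (0.77; 0.35 and 1.05), lost without Lipofectamine array 1, 2 or 3 or control array 2, 4 or 5 (0.0523 to 0.117). Eif2ak3 rose at 1 of its 3 probesets.

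**Figure D3:**
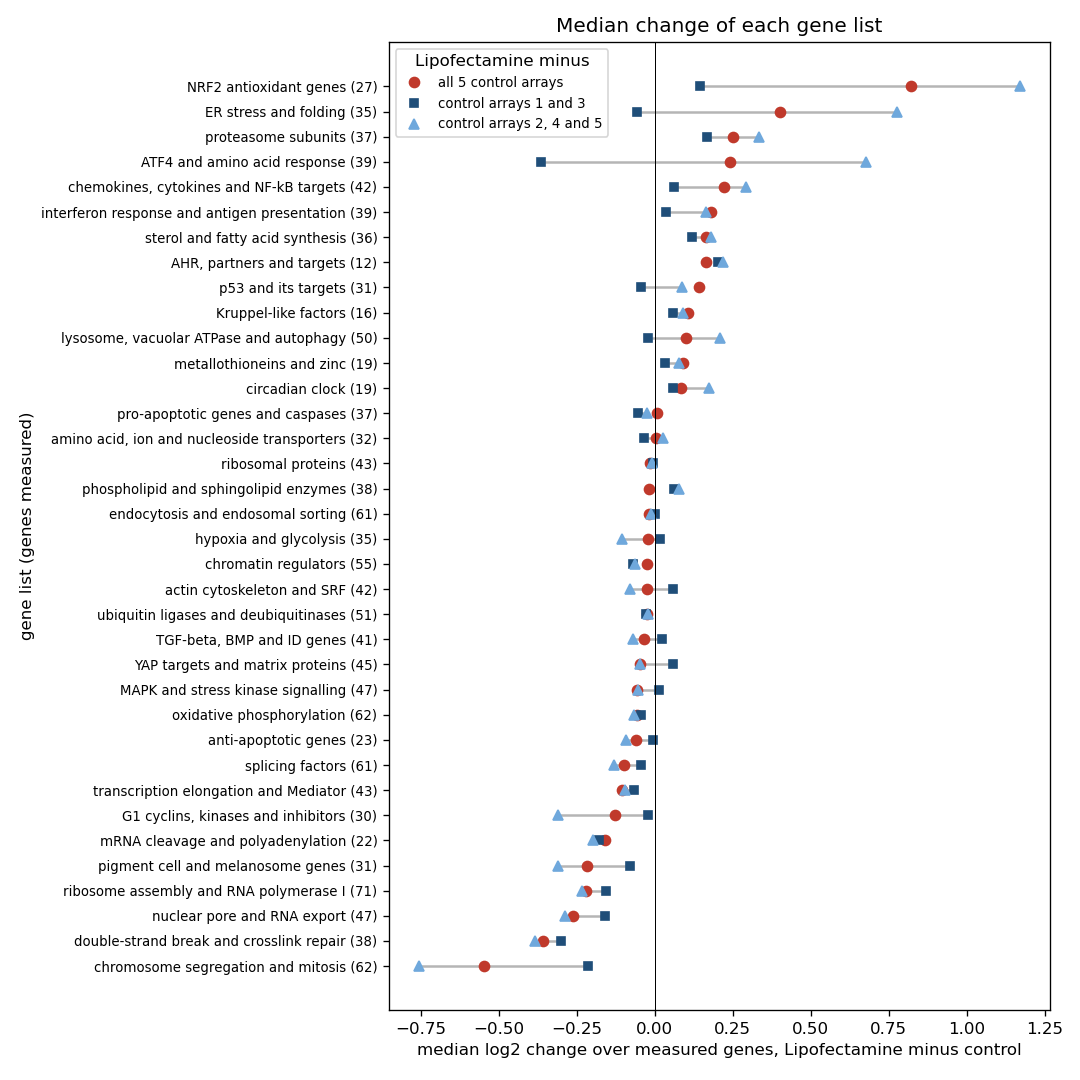
Median log2 change (horizontal axis, Lipofectamine minus control) over the measured genes of each pathway list, ordered from the highest at the top. Red circles are against all 5 control arrays, dark squares against control arrays 1 and 3 and light triangles against control arrays 2, 4 and 5: NRF2 genes lie at 0.82, 0.14 and 1.17, ATF4 genes cross zero, and the mitosis list lies lowest at −0.55, −0.21 and −0.75.

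Among the falls, Ccn4 had the smallest p of the named genes. Ccn4 (also WISP1) is a secreted matrix protein induced by Wnt signals. It gave 6.25, 6.71 and 6.23 with Lipofectamine, against 7.95, 8.02, 7.92, 7.95 and 8.21 in control arrays 1 to 5. The control arrays span 0.30 and lie more than 1.2 above every Lipofectamine array. The change was −1.61 (SE 0.12, adjusted p = 1.1e-05, limma), with −1.53 against control arrays 1 and 3 and −1.66 against 2, 4 and 5, and the brighter probeset changed by −1.05.

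Ppargc1a, the coactivator PGC-1alpha that drives mitochondrial biogenesis, gave 4.64, 4.49 and 4.42 with Lipofectamine, against 5.44, 5.73, 5.72, 6.03 and 6.19 in the control arrays, and changed by −1.30 (−1.06 and −1.47). It fell at 4 of 5 probesets, the brightest being the exception (−0.31, adjusted p = 0.71). Trub2, a pseudouridine synthase of mitochondrial RNA, gave 6.88, 7.44 and 6.72 with Lipofectamine, against 8.67, 8.31, 8.67, 8.52 and 8.11 in the control arrays. It changed by −1.44 (−1.66 and −1.30) and fell at all 3 of its probesets (−1.30 and −0.68 at the others). The ranked probesets of Ppargc1a and Trub2 carry the suffix _x_at, as that of Vasn does. Ndufaf4, which assembles respiratory complex I, gave 6.08, 6.09 and 5.29 with Lipofectamine, against 6.48, 7.04, 7.16, 7.07 and 7.14 in the control arrays, with control array 1 below the others, and changed by −1.16 (−1.0 and −1.26). Its brighter probeset changed by −0.40. Of 62 oxidative phosphorylation genes 1 fell and 0 rose (median −0.06), against 3.33% and 1.69% of all genes.

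Gpr37, an orphan receptor, gave 4.33, 4.48 and 4.26 with Lipofectamine, against 5.40, 5.58, 5.22, 5.49 and 5.90 in the control arrays, and changed by −1.16 (−0.95 and −1.30). These signals, like those of Ppargc1a, are toward the low end of the scale. AU020206, for which the annotation gives no more than this name, gave 7.20, 7.41 and 7.11 with Lipofectamine, against 7.99, 8.17, 8.34, 8.39 and 8.28 in the control arrays and changed by −0.99 (−0.92 and −1.04). Fam104a fell at all 3 probesets, by 1.0 (−0.95 and −1.04 against the sets), 0.65 and 0.46. Slc2a3, a glucose transporter, gave 8.38, 8.44 and 8.26 with Lipofectamine, against 9.33, 9.04, 9.25, 8.96 and 9.02 in the control arrays. It fell at 2 of its 4 probesets and changed by −0.76 (−0.93 and −0.65), the largest fall among 35 hypoxia and glycolysis genes. Of these 2 rose (5.71%) and 3 fell (8.57%), where 1.69% of all genes rose and 3.33% fell.

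Pigment genes fell in small number. Of 31 measured, 5 fell (16.1%, against 3.33% of all genes), 0 rose and 26 did not pass. The median was −0.22, and −0.08 and −0.31 against the sets. Mlph, melanophilin, which ties pigment granules to myosin, gave 7.66, 7.74 and 7.48 with Lipofectamine at 1425586_a_at, against 8.77 and 8.64 in control arrays 1 and 3 and 9.78, 9.83 and 9.67 in control arrays 2, 4 and 5. It changed by −1.71 (−1.08 and −2.13), and by −0.95 at its brighter probeset, where the call was lost without Lipofectamine array 1, 2 or 3 or control array 2 or 4 (0.0523 to 0.104). Mc1r, the melanocortin receptor, gave 7.49, 7.72 and 7.29 with Lipofectamine, against 7.91 and 8.34 in control arrays 1 and 3 and 8.94, 9.06 and 9.10 in the others, and changed by −1.17 (−0.62 and −1.54), a call lost without Lipofectamine array 1 (0.0748) or 3 (0.0788). Rab32, a GTPase of melanosome traffic, changed by −1.04 (−0.59 and −1.34), and its call was lost without Lipofectamine array 3 (0.0661). Mitf, the master regulator of pigment cells, was chosen after its values were seen. It stood at 9.23, 9.86 and 9.56 with Lipofectamine, against 9.87 and 9.93 in control arrays 1 and 3 and 11.74, 11.62 and 11.68 in control arrays 2, 4 and 5. It did not pass (−1.41, adjusted p = 0.0671), and its changes against the sets were −0.34 and −2.13.

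**Figure D4:**
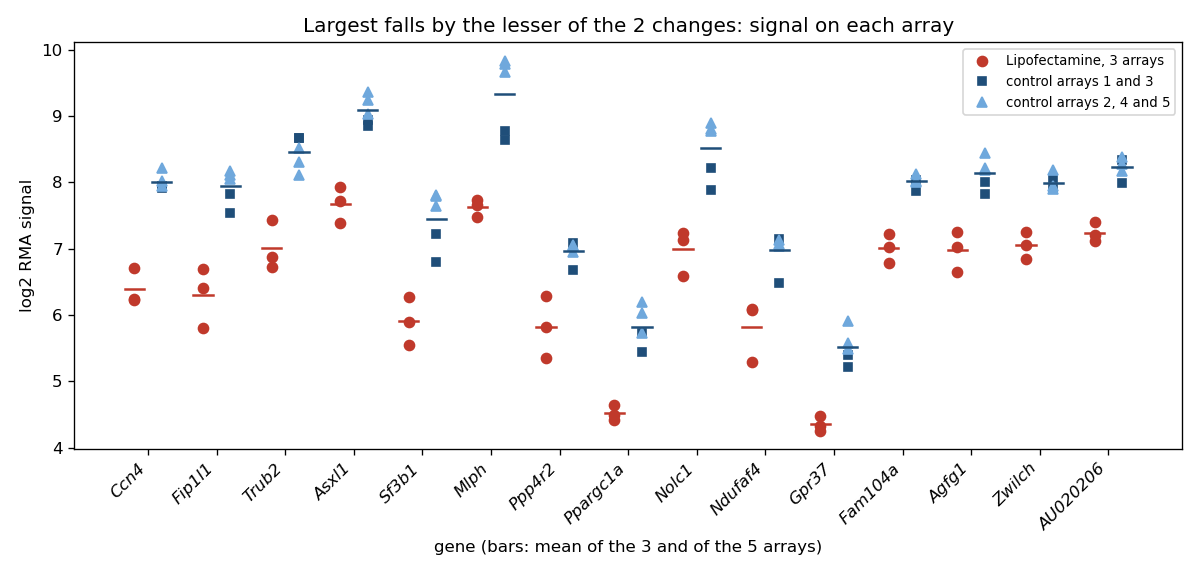
Log2 RMA signal (vertical axis) of the 15 genes with the largest falls, ranked from left to right by the lesser of the changes against the 2 control sets. Lipofectamine arrays (red circles) stand left of the control arrays (dark squares 1 and 3, light triangles 2, 4 and 5), with bars at the group means. All control arrays lie above all Lipofectamine arrays in each gene because the genes were chosen by that condition. The sets part most in Mlph.

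In 6 further genes with the largest falls, as in Ppargc1a, some probesets passed and others did not. Fip1l1 acts in polyadenylation, Sf3b1 in branch point recognition by the spliceosome, Nolc1 in the nucleolus, and Ppp4r2 as a subunit of protein phosphatase 4. Sf3b1 at 1418561_at gave 5.90, 6.28 and 5.55 with Lipofectamine, against 6.81, 7.65, 7.22, 7.80 and 7.80 in the control arrays. These do not overlap, as the choice of the largest falls required. At its brightest probeset, 1449138_at, it gave 10.85, 11.05 and 10.74 with Lipofectamine, against 11.01, 10.84, 11.03, 10.86 and 11.13 in the control arrays, where the ranges overlap. The changes were −1.55 (SE 0.22, adjusted p = 0.00241; −1.10 and −1.84 against the sets) and −0.10 (adjusted p = 0.728). Fip1l1 fell at 1428280_at (−1.64; −1.38 and −1.81), and its brightest probeset did not pass (−0.07). Ppp4r2 likewise fell at 1 probeset (−1.14; −1.07 and −1.19), and its brightest did not pass (0.01). Nolc1 changed by −1.53 (−1.06 and −1.84), beside −0.56 and −0.37 at probesets that did not pass. Agfg1, an endocytic adaptor, fell at 2 of 5 probesets (−1.16, with −0.94 and −1.31 against the sets, and −0.38), and the other 3 did not pass. Asxl1, a chromatin regulator tied to Polycomb, fell at its brightest probeset (−1.41; −1.22 and −1.54), and the other, at 0.43, did not pass. What part of each transcript a probeset reads was not analysed here.

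Of all genes with several probesets, 364 fell at 1 or more of them. The brightest probeset was among those that fell in 198 of these, and every probeset fell in 24. For rises the numbers were 208 genes, 113 with the brightest and 28 with every probeset. Tnrc6a, Prps1l3 and Pafah1b1 rose at one probeset and fell at another.

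**Figure D5:**
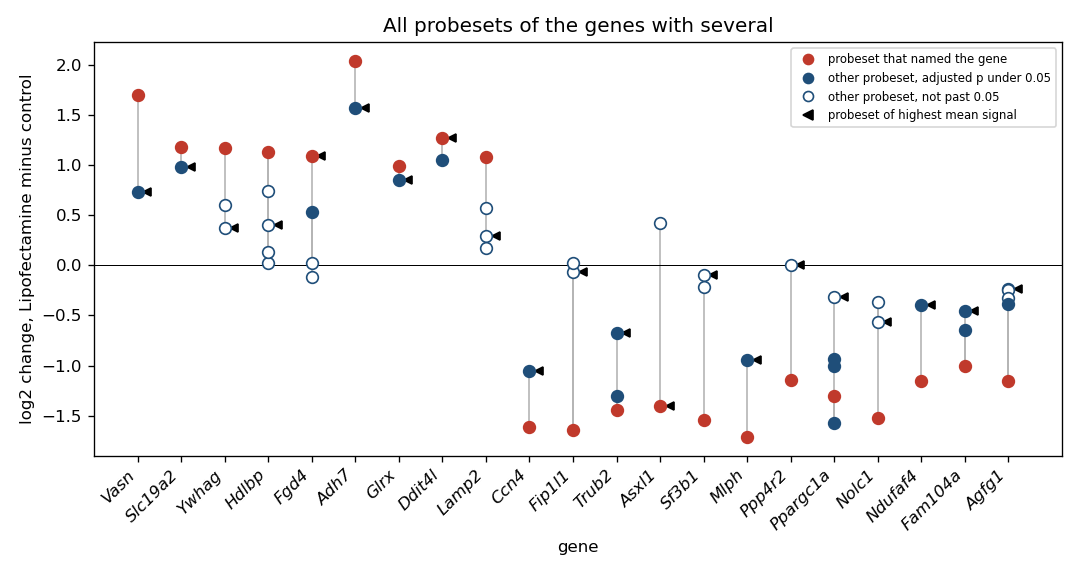
Log2 change (vertical axis, Lipofectamine minus control) at every probeset of those of the 30 leading genes that have several. Red circles are the probesets by which a gene was ranked, blue filled circles other probesets past an adjusted p of 0.05, open circles those not past it, and black triangles mark the probeset of highest mean signal: Glrx, Slc19a2, Ddit4l and Trub2 moved at all their probesets, and Fip1l1, Sf3b1 and Ppp4r2 at 1 each.

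The lists for RNA and nuclear transport are read from the brightest probesets, where 3.33% of all genes fell and 1.69% rose. Of 71 ribosome assembly genes 9 fell and 0 rose, with a median of −0.22 (−0.16 and −0.23 against the sets). In the fit without control arrays 2, 4 and 5, 4 of the 71 were lower and 1 higher. Of all genes 3.45% were lower and 1.32% higher in that fit. Nop56, a core protein of small nucleolar ribonucleoproteins, gave 10.13, 10.29 and 9.76 with Lipofectamine, against 10.75, 10.91, 11.21, 11.16 and 11.04 in the control arrays. It changed by −0.96 (SE 0.13, adjusted p = 0.00166, limma), with −0.93 and −0.98 against the sets. Of 47 nuclear pore and RNA export genes 7 fell and 0 rose (median −0.26). Without control arrays 2, 4 and 5, 3 of the 47 were lower and 0 higher. Nup188, a scaffold of the pore, gave 8.79, 8.83 and 8.54 with Lipofectamine, against 9.24, 9.26, 9.38, 9.23 and 9.29 in the control arrays and changed by −0.56 (−0.59 and −0.54). Of 61 splicing factors 4 fell and 1 rose (median −0.10). Clk2, a kinase of splicing factors, changed by −0.67 (−0.79 and −0.58). Of 22 polyadenylation genes 3 fell and 0 rose (median −0.16). Of 55 chromatin regulators 6 fell and 1 rose. Among the falls Ezh2, the methyltransferase of Polycomb, changed by −0.78 (−0.57 and −0.92). The calls named here for Nop56, Nup188, Clk2 and Ezh2 held with each array left out.

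Among the pathway lists those of mitosis and DNA repair had the largest shares of falls. Of 62 mitosis genes 20 fell (32.3%, against 3.33% of all genes), 1 rose and 41 did not pass. The medians were −0.55, −0.21 and −0.75 against all control arrays and against the sets. With control arrays 2, 4 and 5 left out, 2 of the 62 were lower and 3 higher, where 3.45% of all genes were lower and 1.32% higher. Zwilch, of the kinetochore, gave 7.06, 7.25 and 6.85 with Lipofectamine, against 8.07, 8.18, 7.89, 7.95 and 7.90 in the control arrays. It changed by −0.95 (SE 0.11, adjusted p = 0.000638, limma), with nearly the same value against either set (−0.93 and −0.96). Smc4, of condensin, gave 9.57, 9.61 and 9.57 with Lipofectamine, against 10.15, 10.12, 10.13, 10.23 and 10.35 in the control arrays and changed by −0.61 (−0.56 and −0.65). The 1 rise was Zwint, also of the kinetochore, with 11.83 to 12.08 on the Lipofectamine arrays, against 10.91 to 11.55 on the control arrays, and a change of 0.80 (0.54 and 0.98). Thus 2 kinetochore genes moved in opposite directions. The groups overlapped in neither, which for Zwilch was a condition of its place among the largest falls. Smc4 fell at 1 of its 3 probesets, and Zwint rose at 4 of its 6.

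For double-strand break and crosslink repair the medians against the sets lay closer together. Of 38 genes 11 fell (28.9%, against 3.33% of all genes) and 0 rose, with medians of −0.36, −0.30 and −0.38. With control arrays 2, 4 and 5 left out 10 were lower and 0 higher, where 3.45% of all genes were lower and 1.32% higher. Rad50 and Mre11a encode partners in the complex that binds broken ends. Rad50 gave 8.72, 8.81 and 8.57 with Lipofectamine, against 9.24, 9.53, 9.34, 9.34 and 9.48 in the control arrays, and changed by −0.68 (SE 0.11, adjusted p = 0.00313; −0.59 and −0.75). Mre11a gave 7.93, 8.18 and 7.72 with Lipofectamine, against 8.53, 8.44, 8.68, 8.49 and 8.79 in the control arrays and changed by −0.64 (−0.66 and −0.63), a call lost without Lipofectamine array 1 (0.0518). Brca1, of homologous recombination, gave 8.54, 8.75 and 8.50 with Lipofectamine, against 9.05 and 9.07 in control arrays 1 and 3 and 9.86, 9.80 and 10.06 in control arrays 2, 4 and 5. It changed by −0.97 (−0.46 and −1.31), and the call was lost without Lipofectamine array 1 (0.0945) or 3 (0.0828). Eme1, part of a nuclease of crosslink repair, changed by −0.93 (−0.54 and −1.18), a call lost without Lipofectamine array 3 (0.0608). Rad50 fell at 1 of its 2 probesets and Brca1 at 1 of its 4, and the others did not pass.

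Some regulators and signalling genes also passed. Rps6ka3, a kinase below ERK, gave 8.34, 8.66 and 8.15 with Lipofectamine, against 9.05, 9.39, 9.23, 9.45 and 9.22 in the control arrays, and changed by −0.88 (−0.75 and −0.97). Taf7, a subunit of the general factor TFIID, gave 6.69, 6.91 and 6.76 with Lipofectamine, against 6.49, 5.54, 5.77, 5.61 and 5.74 in the control arrays, with control array 1 apart from the other control arrays, and rose by 0.96 (0.66 and 1.16). Plaur, the urokinase receptor, rose by 0.97 (0.56 and 1.24), and Cdkn2d, an inhibitor of cyclin-dependent kinases, changed by −0.61 (−0.45 and −0.72). Wwp1, a ubiquitin ligase, changed by −0.61 (−0.51 and −0.68). These 5 calls held with each array left out. Rps6ka3 and Wwp1 fell at 1 of their 3 probesets each. Cdkn2d belongs to the 30 measured genes for G1 cyclins, kinases and inhibitors. Of these 3 rose (10%) and 2 fell (6.67%), where 1.69% of all genes rose and 3.33% fell. Of 42 actin and SRF genes and of 43 ribosomal protein genes 0 passed in either direction, near the shares of all genes. Their medians were −0.03 and −0.02.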

How the data were processed

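RNA of B16-F10 cells was measured on 14 arrays: 3 with Lipofectamine, 3 with heat shock, 3 with benzyl alcohol and 5 of control cells. The authors scanned the arrays, read them with GCOS 1.2 (submitters' processing notes) and ran the RMA algorithm of Bioconductor, whose log2 signals they deposited. The version of RMA and which arrays were normalized together are not given in the sources used here, and detection calls were not used, so signals near the lowest value of each array (2.67 to 2.85) may be background. The number of arrays limits the precision. Probesets were annotated from the platform table, with symbols matched through Entrez identifiers for 20351 of 22626 probesets. Of these 20380 have 1 symbol, 691 several and 1555 none, and 64 Affymetrix control probesets were left out.

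The Lipofectamine, heat shock and control arrays, 11 in all, were fitted in 1 model with limma 3.58.1 in R 4.3.3 (lmFit, eBayes, 5.51 prior degrees of freedom), after the 3 groups the study compared. Heat shock arrays thus add to the estimate of the spread. Benjamini-Hochberg adjustment ran over all probesets, and an adjusted p under 0.05 counted as passing. A second threshold was an F-test p under 0.001, as in the study, and then a pairwise p under 0.001, for which the study names no value. Changes against each set of control arrays come from differences of means, and their tests from fits without the other set. In lists a gene is read from its probeset of highest mean signal over the 14 arrays (12393 genes). List counts and medians are descriptions, with no test of a list. Before use, the code was tested on simulated arrays.

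The comparison, the lists and the alternatives were chosen with earlier results of these data known. Named genes are the 15 largest rises and 15 largest falls by the lesser of the changes against the control sets, among those that passed with all Lipofectamine arrays outside the control range, and up to 4 genes with the smallest p in each list. Others are said to be chosen after their values were seen. Promoter windows are those of RefSeq (GRCm38.p6), searched on both strands. Alternatives were 2 groups only, all 14 arrays, a variance trend, array weights, renewed quantile normalization, equal medians, filters on dim and on cross-hybridizing probesets, a fold of 1.5, the replicate number as a block, the mean of a gene's probesets, no F-test gate, and arrays or control sets left out.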

Additional observations from a re-analysis of the deposited data

Results flagged for a closer look

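For 5 of 122 named probesets 1 control array lay far from the other 4 by Dixon's ratio, where chance flags about 1 in 20 groups. Control array 1 stood apart in 4 of them. It gave 6.48 for Ndufaf4 (others 7.04 to 7.16), 8.84 for Ap1g1 (8.43 to 8.51), 6.49 for Taf7 (5.54 to 5.77) and 7.89 for Wwp1 (8.1 to 8.18), in each case nearer to the Lipofectamine means of 5.82, 9.16, 6.79 and 7.48. Control array 2 gave 7.2 for Irgm1 (others 7 to 7.03), beside a Lipofectamine mean of 7.55. What set these arrays apart was not tested.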

How the results depend on the processing

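None of the 122 named probesets changed direction in any fit run. All of them had passed, and the ranked ones were chosen for the same sign against both control sets, so few such changes could occur. The 1104 probesets past an adjusted p of 0.05 by limma became 456 with 2 groups only and 592 with a fold of at least 1.5. Array weights gave 8304 (4088 at the second threshold, against 513), but Lipofectamine array 1 then received a weight of 97.9, against 0.269 to 1.7 for the others. The estimate did not converge, and these counts rest almost wholly on 1 Lipofectamine array. Without control arrays 1 and 3 there were 4248 and 2399, and without 2, 4 and 5 there were 1045 and 630. At the second threshold removing the dimmer probesets left 325. Renewed quantile normalization moved the share of higher calls to 46.6% (568 higher, 650 lower), against 36.4%. Leaving out 1 array gave 255 to 2262 (234 to 914 at the second threshold). There were 255 and 475 without Lipofectamine array 1 and 3, and 729 without heat shock array 2. Without control arrays 1 to 5 in turn there were 2262, 731, 1672, 529 and 698. The share of higher calls was 21.8% without Lipofectamine array 2 and 56.6% without array 3. Same-numbered Lipofectamine and control arrays gave r = −0.01, −0.46 and −0.24 between their deviations from the group means, for numbers 1, 2 and 3. Pairs of unlike number gave −0.19 to 0.48, so these few values cannot decide whether the arrays were paired. With a replicate block 186 probesets passed, and 217 at the second threshold, and 87 of the 122 named calls were lost. Of 122 named probesets, 49 held with each array left out and 32 under every alternative. Lipofectamine array 1 was needed for 69 calls, array 3 for 46 and array 2 for 30. Without control arrays 2, 4 and 5 the medians of the ATF4, endoplasmic reticulum, p53 and lysosome lists turned negative (−0.36, −0.06, −0.04 and −0.02), and other medians near 0 also changed sign.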
